A study of Mus musculus with 90 samples.

Results

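Genes of the proteasome, the protease complex that degrades ubiquitin-tagged proteins, were compared between livers of zileuton-treated and vehicle-treated mice. Members were all genes whose symbol starts with Psma, Psmb, Psmc, Psmd, Psme, Psmf or Psmg followed by a digit, without pseudogene symbols. This gave 50 of the 18223 genes in the deposited tables. Of these, 48 had enough counts to be tested. The name rule also took in Psmc3ip, a meiotic recombination factor that is not a proteasome subunit.

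The proteasome has a barrel-shaped core particle, built from rings of alpha (Psma) and beta (Psmb) subunits, whose beta rings hold the active sites. A regulatory particle caps the core: its base of ATPases (Psmc) and non-ATPase subunits unfolds substrates, and its lid (both Psmd) removes their ubiquitin. In cells exposed to interferon the constitutive active-site subunits can be replaced by immune counterparts, which alters the peptides made for antigen presentation. Chaperones (Psmg and some Psmd) assemble the particles, and activators (Psme) or an inhibitor (Psmf1) bind the core in place of the cap.

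The animals were female Diversity Outbred (J:DO) mice, a stock whose animals each inherit a different mosaic of several founder strains, aged 6 to 20 weeks. By mouth, once daily for 7 days, 41 animals were given sterile distilled water and 49 were given zileuton, an inhibitor of 5-lipoxygenase, at 300 mg/kg. The title of the study names liver toxicity of zileuton as its subject. Of the vehicle animals 29 had agouti, 6 black and 6 white coats, and of the zileuton animals 34, 6 and 9. Each animal gave 1 RNA sequencing library from bulk liver, in which fewer cells of a type and less RNA per cell cannot be told apart.

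Libraries held 12664578 to 41360187 estimated counts, with a median of 25535798. Levels are in CPM, counts scaled to library size. Hepatocyte markers were abundant in all animals, summing to 110000 to 211000 CPM in vehicle and 92800 to 190000 CPM in zileuton livers. Of these 10 markers, 6 were lower and 1 was higher with zileuton. Skeletal muscle markers summed to 3530 CPM in vehicle replicate 8 and 2100 CPM in zileuton replicate 24, against at most 1.35 CPM in the other animals. Clock genes also differed: all 5 genes of the Bmal1 phase were lower and all 11 of the opposite phase were higher with zileuton.

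Proteasome genes differed little between the arms. Of the 48 tested members, 6 were higher (Psma7, Psmb7, Psmd8, Psmf1, Psme1 and Psme2b) and 1 was lower (Psmc5) with zileuton at an adjusted p under 0.05 (edgeR quasi-likelihood test, Benjamini-Hochberg over 13248 genes). That is 14.6% of the members, where 29.3% of all tested genes were called, 14.4% as higher and 14.8% as lower. No member reached a 2-fold difference, and the ranges of the 2 arms overlapped for all 48. Without vehicle replicate 8 there were 6 calls among the members (28.8% of all genes), and without zileuton replicate 24 there were 7 (29.7%). The median size of the log2 difference, without its sign, was 0.046 over the members and 0.102 over all tested genes. Among genes over 5 CPM the same medians were 0.044 for 47 members and 0.09 for 9221 genes, of which 33.4% were called.

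The intervals show what size of difference the fit without covariates allows, and other fits gave larger values for some members, as described further on. For 44 of the 48 members the 95% interval of the log2 difference lay within 0.3 of 0, a 1.23-fold difference, and for 39 it lay within 0.2, or 1.15-fold. Over the 47 members above 5 CPM the intervals reached from -0.357 to 0.322 on the log2 scale. The plot of log2 differences by role shows each interval.

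**Figure D1:**
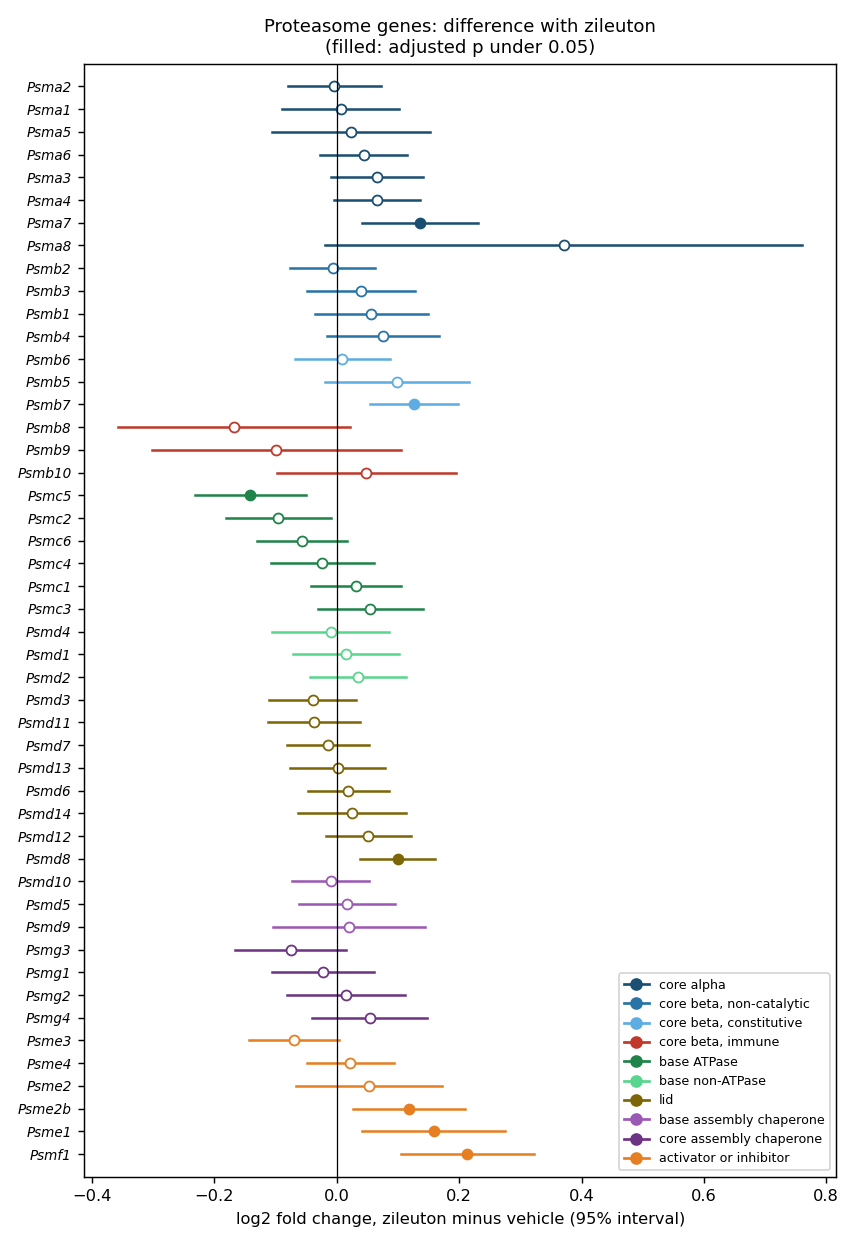
Log2 fold change of zileuton minus vehicle (horizontal axis) with its 95% interval for the 48 tested members, coloured by role and ordered by size within a role. Filled points are the 7 with an adjusted p under 0.05. All of them lie between -0.14 and 0.21, and the widest interval belongs to Psma8, the least abundant tested member.

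In the core particle, 1 of 8 alpha subunits rose. Psma7, an alpha ring subunit (chromosome 2, 180036374 to 180042433, mm10), ranged from 72.7 to 132.8 CPM in vehicle livers with a median of 94.5. In zileuton livers it ranged from 70.7 to 143.8 with a median of 102.6. The ranges covered nearly the same span, and 38 of 49 zileuton animals lay above the vehicle median. Its mean rose from 95.5 ± 13.9 (SD, n = 41) to 105 ± 17.3 (SD, n = 49), a log2 difference of 0.14 with an SE of 0.05 and an adjusted p of 0.022. Within runs of 50 consecutive animal numbers, whose meaning the labels do not give, the difference was positive in 7 of 8 and spanned -0.052 to 0.386. Its estimated count was whole in 5.6% of animals, and otherwise held fractions of reads.

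Among the 4 beta subunits without an active site, none was called. The most abundant of them, Psmb1 (chromosome 17, 15475021 to 15499751), had medians of 147.1 CPM in vehicle livers, within 111.9 to 238.5, and 149 CPM in zileuton livers, within 105.5 to 219.4. Its log2 difference was 0.06, with an interval from -0.04 to 0.15.

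The 3 constitutive active-site subunits are Psmb5, with chymotrypsin-like activity, Psmb6, with caspase-like activity, and Psmb7, with trypsin-like activity. Psmb7 (chromosome 2, 38588036 to 38644087) rose, from 106.7 ± 9.66 CPM (SD, n = 41) to 116.5 ± 16.1 CPM (SD, n = 49). Its vehicle values ran from 86.8 to 130.5 with a median of 107.6, and its zileuton values from 82.8 to 159.1 with a median of 113.1. The arms overlapped, but only zileuton animals exceeded 130.5 CPM. The log2 difference was 0.13 with an SE of 0.04 and an adjusted p of 0.00477, positive in 7 of 8 runs, from -0.037 to 0.288.

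Psmb5 (chromosome 14, 54614119 to 54618022) ran from 46 to 101.3 CPM in vehicle livers, median 61.7, and from 41.6 to 133.6 CPM in zileuton livers, median 65.2. The zileuton range was the wider at both ends. Its log2 difference of 0.10, with an interval from -0.02 to 0.22, did not pass (adjusted p = 0.21). Psmb6 (chromosome 11, 70525367 to 70527858) ran from 78.2 to 133.8 CPM with a median of 100.9 in vehicle livers. In zileuton livers it ran from 70.7 to 140.2 with a median of 102.9. The arms lay almost on each other, with a log2 difference of 0.01, an interval from -0.07 to 0.09 and an adjusted p of 0.888.

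None of the 3 immune active-site subunits was called. Psmb8, the counterpart of Psmb5 (chromosome 17, 34197721 to 34201454), ran from 16 to 67.3 CPM in vehicle livers, median 34.1, and from 14.8 to 57.7 CPM in zileuton livers, median 29.2. Of the zileuton animals, 33 of 49 lay below the vehicle median, yet the ranges overlapped almost fully. Its log2 difference of -0.17 had an interval from -0.36 to 0.02 and an adjusted p of 0.185.

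Psmb9, the counterpart of Psmb6 and a neighbour of Psmb8 on chromosome 17 (34181987 to 34187764), had medians of 16.7 CPM in vehicle livers, within 7.61 to 47.6, and 16.3 CPM in zileuton livers, within 7.2 to 32.6. Its log2 difference was -0.10, with an interval from -0.30 to 0.11. Psmb10, the counterpart of Psmb7 (chromosome 8, 105935735 to 105938444), had medians of 30.6 CPM, within 19.6 to 53.4, and 31.4 CPM, within 22.8 to 58.9. Its log2 difference was 0.05, with an interval from -0.10 to 0.19. For both genes the animals of the 2 arms covered similar ranges. Psmb11, the thymic counterpart, was at 0 in 38 of 41 vehicle and 43 of 49 zileuton livers and was not tested.

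**Figure D2:**
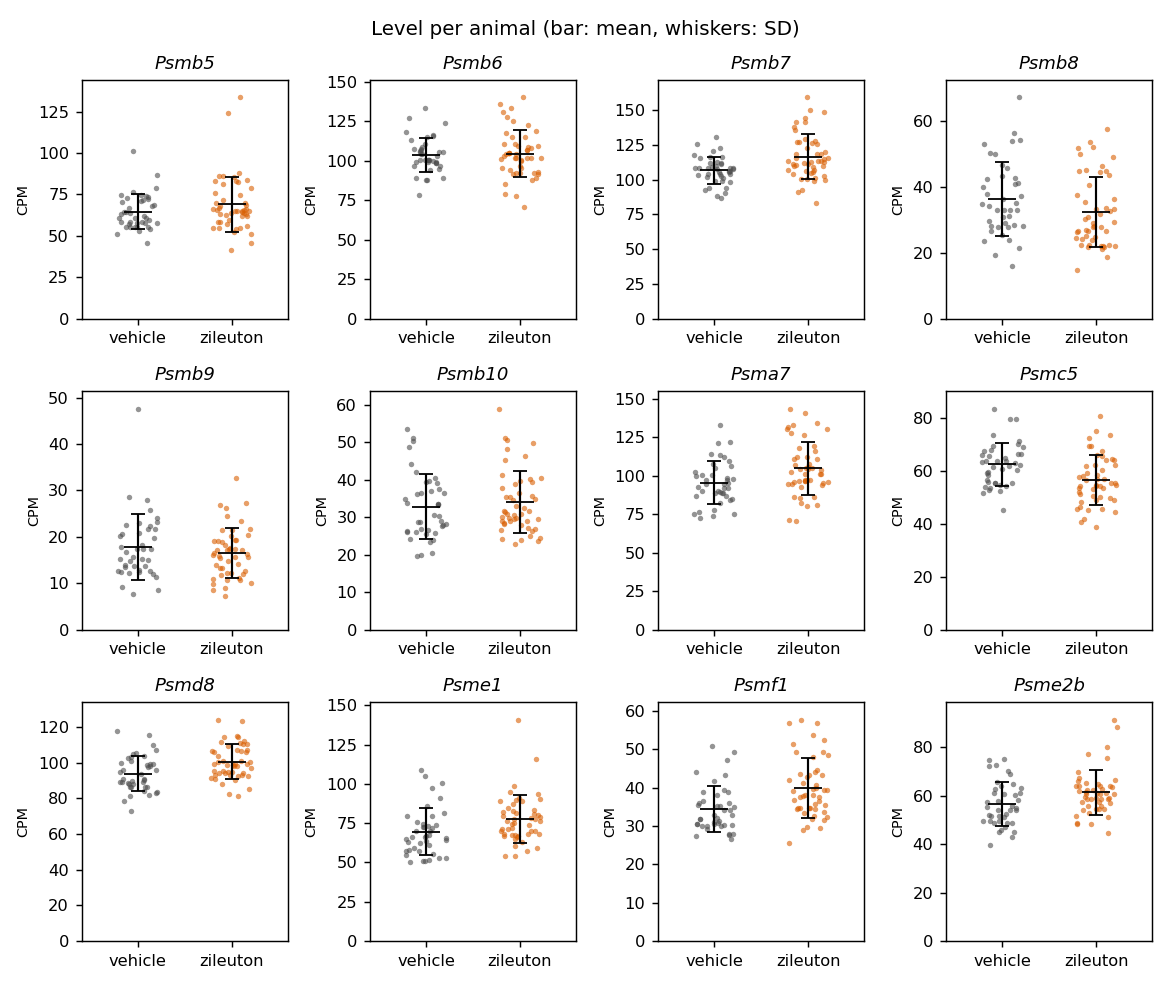
Level in CPM (vertical axes, from 0) of 12 members in each of 41 vehicle (grey) and 49 zileuton (orange) livers, with the mean as a bar and the SD as whiskers. The arms overlap in every panel, including the 7 genes that passed the test.

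The promoters of the constitutive and immune active-site genes are shown because their products fill the same places in the core while their levels varied separately across animals, as described further on. Each line holds 250 bases before and 50 after the RefSeq start (GRCm38.p6, the assembly of mm10), 5′ to 3′ on the gene's strand. Capitals mark matches, on either strand, to any of 7 sequences searched. TGACNNNGC is the core of the antioxidant response element, the type of site bound by Nfe2l1. CCGGAAG is the site of ETS family factors. The letters GGGCGG are the GC box of Sp family factors, and the letters TATAAA are the box that places the start of many tissue-specific genes. The CCAAT box and the E-box, with the letters CACGTG, were searched as well. The interferon response core was searched as GAAA, any 2 bases and GAAA again. The windows lie at chr14:54617946-54618245 (Psmb5, minus strand), chr11:70525107-70525406 (Psmb6, plus), chr17:34197945-34198244 (Psmb8, plus), chr17:34187281-34187580 (Psmb9, minus) and chr8:105938343-105938642 (Psmb10, minus). Psmb7 is not in the promoter table.
Psmb5: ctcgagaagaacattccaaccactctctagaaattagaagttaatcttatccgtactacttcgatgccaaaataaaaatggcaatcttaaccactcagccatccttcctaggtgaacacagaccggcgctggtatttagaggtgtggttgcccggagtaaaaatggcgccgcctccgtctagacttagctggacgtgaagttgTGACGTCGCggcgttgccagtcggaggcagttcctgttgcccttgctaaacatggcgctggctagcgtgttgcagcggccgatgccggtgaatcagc
Psmb6: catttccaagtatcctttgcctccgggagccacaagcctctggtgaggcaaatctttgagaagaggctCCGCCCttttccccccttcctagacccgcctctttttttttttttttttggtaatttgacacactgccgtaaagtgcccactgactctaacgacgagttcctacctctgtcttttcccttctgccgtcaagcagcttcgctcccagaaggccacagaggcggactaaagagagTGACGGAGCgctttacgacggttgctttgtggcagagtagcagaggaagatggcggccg
Psmb8: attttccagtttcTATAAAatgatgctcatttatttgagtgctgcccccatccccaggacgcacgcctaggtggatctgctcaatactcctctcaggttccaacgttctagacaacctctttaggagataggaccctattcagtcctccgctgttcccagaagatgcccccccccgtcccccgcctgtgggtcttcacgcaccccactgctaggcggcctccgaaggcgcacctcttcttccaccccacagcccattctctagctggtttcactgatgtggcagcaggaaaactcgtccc
Psmb9: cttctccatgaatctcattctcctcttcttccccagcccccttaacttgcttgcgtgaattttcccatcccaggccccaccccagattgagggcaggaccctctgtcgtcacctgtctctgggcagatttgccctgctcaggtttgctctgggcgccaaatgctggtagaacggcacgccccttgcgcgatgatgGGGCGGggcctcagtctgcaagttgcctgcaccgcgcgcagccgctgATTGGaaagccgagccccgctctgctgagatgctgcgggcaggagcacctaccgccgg
Psmb10: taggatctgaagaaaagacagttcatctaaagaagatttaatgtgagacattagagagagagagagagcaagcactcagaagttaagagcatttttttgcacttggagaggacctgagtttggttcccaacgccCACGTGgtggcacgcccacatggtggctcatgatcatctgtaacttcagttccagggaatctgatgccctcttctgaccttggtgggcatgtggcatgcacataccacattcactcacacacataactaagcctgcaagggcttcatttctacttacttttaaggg
The Psmb5 and Psmb6 windows hold a match to the antioxidant response core, and the 3 immune windows do not. The Psmb8 and Psmb9 windows lie wholly inside the gene positions given above. They therefore hold no bases before those annotated gene starts, unlike the other windows. Over the 42 members found in the promoter table, 14.3% held that core, against 16.9% of 10340 tested genes. The ETS sequence was in 35.7% of the members and in 19.2% of the tested genes, and in 10 of 25 constitutive subunits. The interferon response core was in 5 members (Psmb3, Psmd4, Psmd9, Psme1 and Psmg4), 11.9% against 3.89%, and in none of the 5 windows above. The CCAAT box was in 35.7% of members against 43% of tested genes, the GC box in 54.8% against 66.2%, the TATA box in 9.52% against 9.47% and the E-box in 9.52% against 11.6%. An E-box was the only match in the Psmb10 window. These are descriptions of letters in 300 bases, and no binding was measured.

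The immune subunits made up a smaller part of each active-site pair. The ratio of Psmb8 to Psmb5 in CPM had a median of 53.7% in vehicle livers, within 21.6 to 115%, and 44.6% in zileuton livers, within 16.5 to 108%. Per exon length of the basic annotation these medians were 29.7% and 24.6%, and with the exons of all annotated transcripts 14.3% and 11.9%. The mean log2 ratio differed by -0.26 between arms, which had a permutation p of 0.0322 and, adjusted over 3 ratios, of 0.0966. When animals were permuted within runs the adjusted p was 0.0375. Psmb9 to Psmb6 had medians of 15.3% and 15.2%, and Psmb10 to Psmb7 had medians of 29.9% and 27.5%. Per basic exon length these were 9.03% and 8.98% for Psmb9 to Psmb6, and 26.5% and 24.3% for Psmb10 to Psmb7. With the exons of all annotated transcripts Psmb9 to Psmb6 was at 7.83% and 7.78%. Psmb10 to Psmb7 was then higher, at 60% and 55.1%, so the choice of length moved the ratios in both directions. Neither the Psmb9 to Psmb6 nor the Psmb10 to Psmb7 ratio passed (adjusted permutation p = 0.442 for both).

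In the base of the regulatory particle, 1 of 6 ATPases fell and none of the 3 non-ATPase subunits was called. Psmc5 (chromosome 11, 106256154 to 106263120) ran from 45.1 to 83.5 CPM in vehicle livers, median 62.1, and from 38.8 to 80.8 CPM in zileuton livers, median 55.3. The arms overlapped, with 35 of 49 zileuton animals below the vehicle median. Its mean fell from 62.5 ± 8.16 (SD, n = 41) to 56.6 ± 9.36 (SD, n = 49), a log2 difference of -0.14 with an SE of 0.05 and an adjusted p of 0.0123. It was lower in 8 of 8 runs, by differences from -0.211 to -0.012. Another ATPase, Psmc2, had an unadjusted p under 0.05 but did not pass, at -0.10 with an adjusted p of 0.0858. The log2 differences of the ATPases ran from -0.14 to 0.06 with a median of -0.04. Psmd2, the most abundant non-ATPase base subunit and a docking site for substrate carriers (chromosome 16, 20651652 to 20663414), had medians of 170.6 CPM in vehicle and 168.8 CPM in zileuton livers, with a difference of 0.03 and an interval from -0.04 to 0.11.

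In the lid, 1 of 8 subunits rose. Psmd8 (chromosome 7, 29174188 to 29180701) ran from 73 to 117.5 CPM in vehicle livers with a median of 90.7. In zileuton livers it ran from 81.3 to 124 with a median of 98.9. Few zileuton animals were low: 44 of 49 lay above the vehicle median. Its mean rose from 93.8 ± 9.88 (SD, n = 41) to 100.5 ± 9.63 (SD, n = 49), a log2 difference of 0.10 with an SE of 0.03 and an adjusted p of 0.00951. It was higher in 8 of 8 runs, by 0.03 to 0.215. The other 7 lid subunits, among them Psmd14, the deubiquitinase of the lid, lay between -0.04 and 0.05.

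No assembly chaperone was called, neither the 4 of the core nor the 3 of the base. Psmg1, which helps to build the alpha ring (chromosome 16, 95979933 to 95990960), had medians of 18.1 CPM, within 12.8 to 24.4, and 17.3 CPM, within 10.9 to 23. Its log2 difference was -0.02, with an interval from -0.11 to 0.06. Psmd5, a chaperone of the base (chromosome 2, 34849734 to 34874968), had medians of 34.1 CPM, within 26.7 to 44.3, and 35 CPM, within 26.8 to 48.9. Its difference was 0.02, with an interval from -0.06 to 0.10.

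Among the 5 activator genes and the inhibitor gene, 3 rose. Psmf1, the inhibitor of the core known as PI31 (chromosome 2, 151715812 to 151744186), had the largest called difference. It ran from 26.5 to 50.9 CPM in vehicle livers with a median of 32.8, and from 25.6 to 57.8 in zileuton livers with a median of 38.2. The arms overlapped, with 41 of 49 zileuton animals above the vehicle median. Its mean rose from 34.5 ± 6.01 (SD, n = 41) to 40 ± 7.78 (SD, n = 49), or 16% by the fitted log2 difference of 0.21 (SE 0.05, adjusted p = 0.00146). The difference was positive in 7 of 8 runs, from -0.084 to 0.374. Its estimated count was whole in 20% of animals.

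Psme1, the alpha subunit of the interferon-inducible PA28 activator (chromosome 14, 55578123 to 55581529), ran from 50.5 to 109 CPM in vehicle livers, median 66.4, and from 53.8 to 140.8 CPM in zileuton livers, median 76.1. The arms overlapped, with 41 of 49 zileuton animals above the vehicle median. Its mean rose from 69.4 ± 14.9 (SD, n = 41) to 77.5 ± 15.3 (SD, n = 49), a log2 difference of 0.16 with an SE of 0.06 and an adjusted p of 0.0336. The difference was positive in 7 of 8 runs, from -0.177 to 0.555. This call rested on single animals: without zileuton replicate 44 the adjusted p was 0.0595, and without zileuton replicate 46 it was 0.0523.

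Psme2, which encodes the other PA28 subunit, and its near copy Psme2b share reads. Of the 50-base windows of their transcripts, 59.3% of those of Psme2 occur in Psme2b and 68.7% of those of Psme2b in Psme2, so their separate values are uncertain. Psme2b, described here after its value was seen (chromosome 11, 48945354 to 48946190), ran from 39.8 to 75.1 CPM with a median of 55.1 in vehicle livers. In zileuton livers it ran from 44.6 to 91.5 with a median of 60.8. The arms overlapped, and its log2 difference of 0.12 had an SE of 0.05 and an adjusted p of 0.0436. It was positive in 6 of 8 runs, from -0.049 to 0.444, and was called in 65 of the 90 fits that each left out 1 animal. Without vehicle replicate 8, which held muscle transcripts, its adjusted p was 0.0568. Psme2 itself was not called, at 0.05. Summed over both genes, the level was 83.8 ± 13.8 CPM (SD, n = 41) in vehicle and 89.6 ± 14.3 CPM (SD, n = 49) in zileuton livers. The activators Psme3 and Psme4 were not called, at -0.07 and 0.02.

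With some covariates the calls were lost. With a clock gene score none of the 48 members was called by edgeR (2 at an unadjusted p under 0.05), while 2.9% of all genes were, and the log2 differences of the 7 genes were smaller. Psmb7 went from 0.13 to 0.05 and Psmf1 from 0.21 to 0.11, and Psme2b was at 0.00. The genes of the clock score all differed between the arms, so score and treatment can be told apart only in part. Within each run, vehicle animals had positions 13 to 20 and zileuton animals positions 25 to 50, so treatment and the order of the animal numbers cannot be told apart. With that position as a covariate none of the members and 1.64% of all genes were called, but 5 of the 7 differences were larger. At an unadjusted p under 0.05 there were 21 members. The median log2 difference over the 48 members was 0.164, against 0.021 without covariates. Psmb7 was at 0.25 (adjusted p = 0.0628), Psma7 at 0.24, Psmd8 at 0.18 and Psme1 at 0.34, while Psmf1 was at 0.17 and Psmc5 changed sign to 0.08. With the hepatocyte marker score as a covariate 4 members, and 22% of all genes, were called. DESeq2 on all animals called 7 members and 30.4% of all genes, and limma-voom called 8 members and 31.2% of all genes.

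Levels between members were compared per kilobase of exon sequence. In vehicle livers the constitutive active-site genes stood highest as a role, with a median of 92 CPM per kilobase and Psmb6 at 130. Beta subunits without an active site had a median of 71.8, alpha subunits of 49.5, base non-ATPases of 51.1, ATPases of 46.4 and lid subunits of 35.4. Immune active-site genes stood lower, at 22.4, with Psmb9 at 13.2. The assembly chaperones were lowest, with medians of 14.8 for those of the core and 7.88 for those of the base. Psmd10, known as gankyrin, was at 6.44. Psma8, a testis-specific alpha subunit, was at 0.716. These levels depend on the annotated length. With the exons of all annotated transcripts in place of the basic set, 25 of the 48 members moved down by over 1.5 times. Psmb6 was then at 55.4 CPM per kilobase, below Psma6 (74.3) and Psmb5 (71.8), Psmb7 was at 31.2, Psmb8 at 10.8 and Psmb9 at 4.86. The median of the constitutive active-site genes (55.4) then still stood above that of their immune counterparts (10.8), and that of the base chaperones (4.79) was still the lowest.

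**Figure D3:**
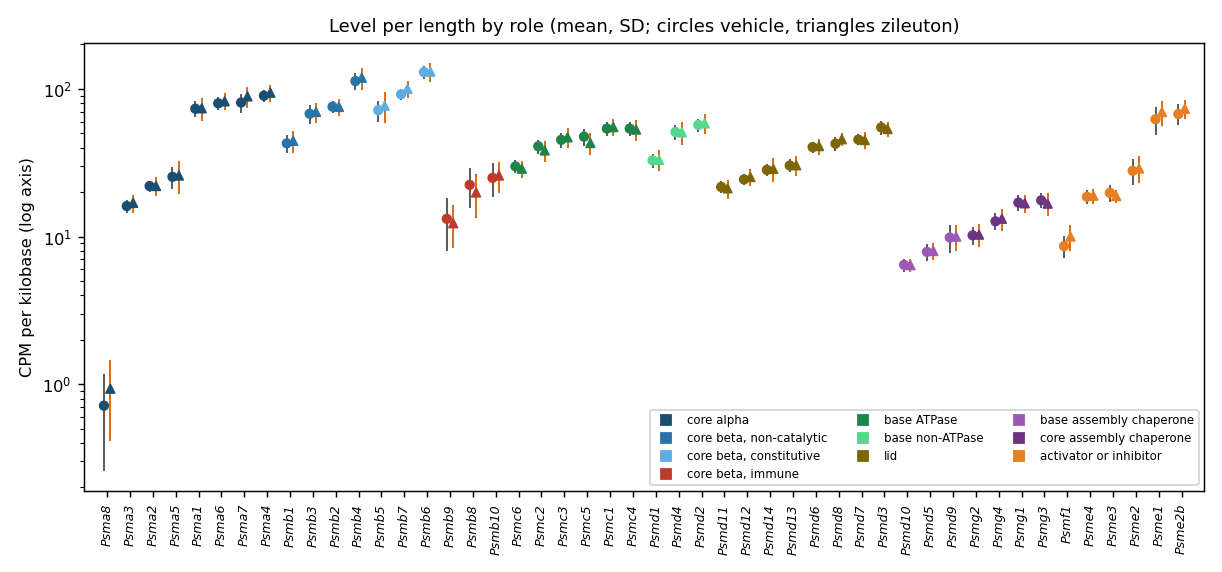
Level in CPM per kilobase of exon sequence (log axis) of the 48 tested members, as mean and SD over 41 vehicle (circles) and 49 zileuton (triangles) livers, grouped by role. Constitutive active-site genes (71.8 to 130 in vehicle livers) stand above their immune counterparts (13.2 to 25), and the assembly chaperones lie at 17.6 or below.

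Across animals the subunits varied together. With the arm means removed, the 465 pairs among 31 constitutive core and regulatory subunits had a median Pearson r of 0.607 over 90 animals, within 0.168 to 0.869. The closest pair was Psmb4 with Psmb7. Removing the means of the runs as well left a median of 0.565, and the same median over pairs of all 9221 genes above 5 CPM was 0. Values of 1 animal share a library, its depth and its scaling, and these correlations are descriptions with no test. Pairs within the core (median 0.663) and within the regulatory particle (0.657) were closer than pairs across them (0.544). The median r of the same 31 subunits was 0.341 among vehicle and 0.719 among zileuton animals, and the difference between the arms was not tested.

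The immune subunits formed a separate group. Psmb8, Psmb9 and Psmb10 had a median r of 0.707 with each other but of 0.047 with the 31 constitutive subunits. Psmb10 had r = 0.666 with Psme1 and 0.781 with Psme2b. Psme4, which encodes the PA200 activator, ran the other way, with r = -0.391, -0.4 and -0.445 with Psmb8, Psmb9 and Psmb10. The assembly chaperones had a median r of 0.329 with the constitutive subunits, and the activators with the inhibitor had 0.246. Psmd9 (0.15), Psme4 (0.166) and Psmf1 (0.169) were the least like the subunits outside the immune group.

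**Figure D4:**
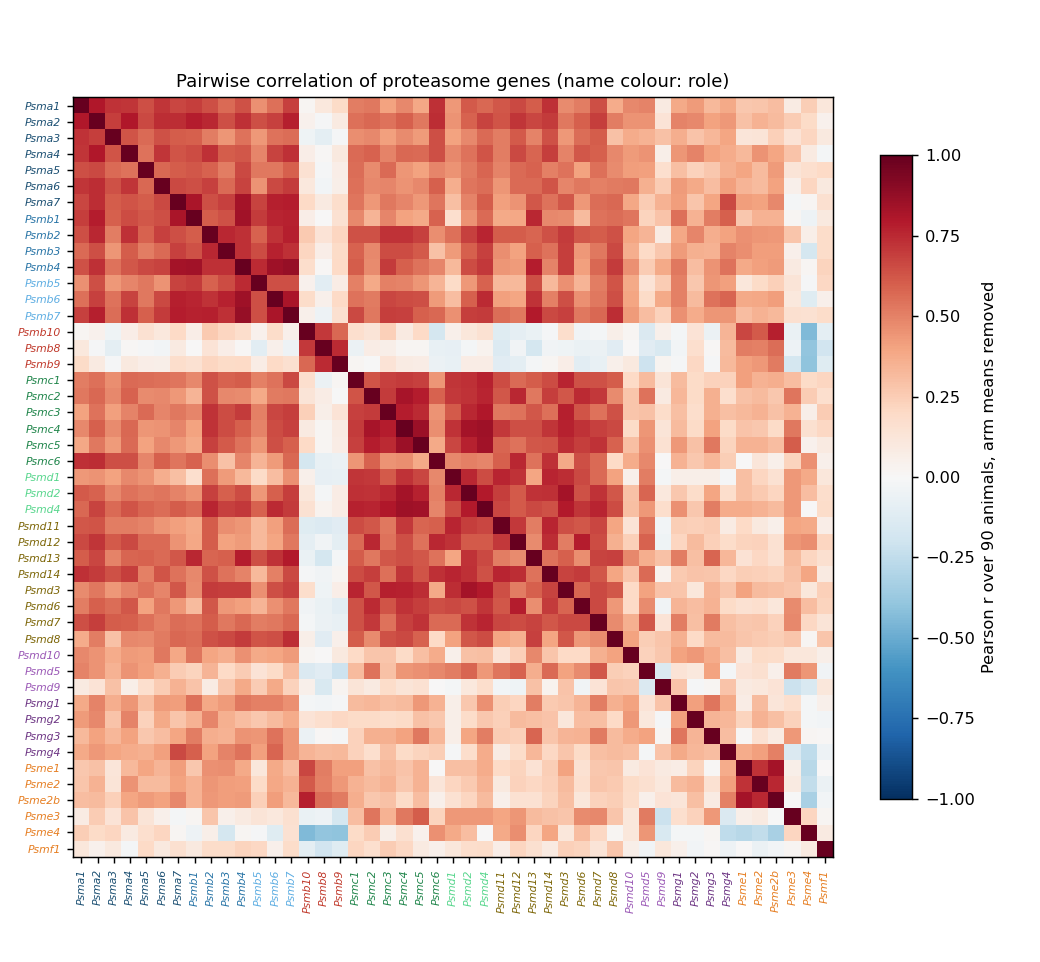
Pearson r between log2 CPM of 47 members over 90 animals with arm means removed (colour scale from -1 to 1), with genes ordered and their names coloured by role. Constitutive subunits form 1 block of positive r, and Psmb8, Psmb9 and Psmb10 form another that also takes in Psme1, Psme2 and Psme2b.

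Of 16 relations computed within arms (8 gene pairs, p-values adjusted over the 16), Psmb8 with Psmb9 had r = 0.772 (rho 0.776) in vehicle and r = 0.725 (rho 0.733) in zileuton livers. In both arms and for both measures the permutation p was 1e-05, the smallest that 100000 permutations can give, and 2.67e-05 adjusted. Without the 2 animals farthest from the median of Psmb8, r was 0.754 and 0.733. Within runs of at least 6 animals r lay between 0.814 and 0.925 over 3 vehicle runs, and between 0.079 and 0.883 over 5 zileuton runs. Psmb5 with its counterpart Psmb8 had r = -0.057 (rho -0.012) in vehicle and r = -0.13 (rho -0.105) in zileuton livers, which did not pass (permutation p for r 0.721 and 0.376, adjusted 0.721 and 0.43, and for rho 0.94 and 0.471, adjusted 0.94 and 0.516). Without the 2 farthest animals r was -0.149 and 0.006, and within runs it lay between 0.373 and 0.646 and between -0.676 and 0.354.

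Psmb5 with Psmb6 had r = 0.502 (rho 0.447) in vehicle and r = 0.709 (rho 0.679) in zileuton livers. The permutation p was 0.00091 for r and 0.00354 for rho in vehicle, adjusted to 0.00146 and 0.00629, and 1e-05 for both in zileuton, adjusted to 2.67e-05. After removal of the 2 farthest animals r was 0.46 and 0.689, and within runs it lay between 0.631 and 0.847 and between 0.581 and 0.889. Psmd14 of the lid with Psma1 of the core had r = 0.508 (rho 0.548) in vehicle and r = 0.807 (rho 0.708) in zileuton livers. The permutation p was 0.00085 and 0.00031 in vehicle, adjusted to 0.00146 and 0.000709, and 1e-05 for both in zileuton, adjusted to 2.67e-05. It was 0.572 and 0.796 without the 2 farthest animals, but within vehicle runs it ran from -0.412 to 0.945, and within zileuton runs from 0.64 to 0.849.

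Nfe2l1, the transcription factor that raises proteasome genes when the proteasome is inhibited, showed no relation with Psmb5 that passed. Its r was -0.219 (rho -0.183) in vehicle and -0.058 (rho 0.102) in zileuton livers, with permutation p for r of 0.169 and 0.693, adjusted 0.208 and 0.721. For rho p was 0.249 and 0.484, adjusted 0.306 and 0.516. Without the 2 farthest animals r was -0.083 and 0.061, and within runs it lay between -0.461 and -0.041 and between -0.82 and 0.543. Irf1, a transcription factor of the interferon response, had r = 0.539 (rho 0.418) with Psmb9 in vehicle livers, with permutation p of 0.00027 and 0.00724, adjusted 0.000617 and 0.0105. Without the 2 farthest animals r was 0.366, and within runs it lay between 0.193 and 0.733. In zileuton livers r was 0.27 (rho 0.217), which did not pass, with permutation p of 0.0597 and 0.137, adjusted 0.0796 and 0.183. There r was 0.326 without the 2 farthest animals and lay between -0.324 and 0.672 within runs.

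The remaining relations were chosen after earlier values were seen. Tap1, the peptide transporter gene next to Psmb9, had r = 0.839 (rho 0.799) with it in vehicle and r = 0.823 (rho 0.798) in zileuton livers, with a permutation p of 1e-05 in all cases, adjusted to 2.67e-05. Leaving out the 2 farthest animals gave 0.82 and 0.818, and within runs it lay between 0.7 and 0.89 and between 0.577 and 0.951. Ptprc, the pan-leukocyte marker CD45, had r = 0.452 (rho 0.433) with Psmb8 in vehicle livers, with permutation p of 0.00321 and 0.00505, adjusted 0.00467 and 0.00808. In zileuton livers r was 0.47 (rho 0.429), with permutation p of 0.00064 and 0.00222, adjusted 0.00128 and 0.00444. Without the 2 farthest animals r was 0.404 and 0.39, and within runs it lay between 0.306 and 0.499 in vehicle but between -0.808 and 0.758 in zileuton livers. The 19 immune cell markers summed to 77.7 to 806 CPM in vehicle and 90.9 to 591 CPM in zileuton livers, and of the 15 that could be tested 1 was lower with zileuton (Cd3g, -0.49). The part of immune cells in the immune subunit levels was not tested.

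The members varied less from animal to animal than most genes in vehicle livers. Over 47 members above 5 CPM the median coefficient of variation (CV) was 11.2% in vehicle and 15.3% in zileuton livers, against 16.4% and 16.3% over 9221 genes above 5 CPM. In vehicle livers 8 of the 47 lay above the median of these 9221 genes, and in zileuton livers 21. The 9221 genes were not matched to the members for level, on which a CV also depends. The smallest values in vehicle livers were those of Psmd6 (8.18%), Psmd7 (8.48%) and Psma2 (8.57%), which were 12.5%, 12.8% and 15% in zileuton livers. The largest among tested members were Psma8 (63.8%), Psmb9 (39.5%) and Psmb8 (30.8%). The CV was higher with zileuton in 39 of 47 members and in 47% of all genes above 5 CPM. The members are not separate observations here, because the 31 constitutive subunits varied together (median r of 0.719 among zileuton animals). A test of the spread gene by gene, added after the values were seen, called none of the 48 members and 0.00755% of all genes (limma on absolute deviations from the arm median). At an unadjusted p under 0.05 it gave 16 members. With run means removed the test again called none of the members, and 0.257% of all genes. At an unadjusted p under 0.05 it then gave 7 members.

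The mean of the 31 constitutive subunits in each animal, as log2 deviation from each gene's mean over all animals, ran from -0.197 to 0.224 in vehicle livers, a 1.34-fold range with an SD of 0.093. In zileuton livers it ran from -0.438 to 0.377, a 1.76-fold range with an SD of 0.187. The lowest animal was zileuton replicate 31, in which all 31 subunits lay below their own median, and the highest was zileuton replicate 12, in which none did. As a description, its r among zileuton animals was -0.302 with the immune marker score, -0.292 with the position within the run, -0.229 with the hepatocyte marker score, -0.096 with the log2 library total and -0.018 with the clock score. Among vehicle animals these values were 0.108, -0.087, 0.127, 0.007 and 0.141. The part of these measures in the wider zileuton range was not tested.

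The level in zileuton livers also differed between runs of animal numbers. The mean deviation was 0.14 ± 0.112 in run 1 (SD, n = 6), 0.162 ± 0.191 in run 2 (SD, n = 7) and 0.148 ± 0.072 in run 5 (SD, n = 2), but -0.126 ± 0.134 in run 4 (SD, n = 12) and -0.092 ± 0.162 in run 7 (SD, n = 4). Vehicle runs lay between -0.036 and 0.02. Runs differed among zileuton animals for 4 of 48 members, with 1.63% of all genes called (edgeR test of all runs, added after the values were seen). These were Psmc6 (adjusted p = 0.000971), Psmd12 (0.0185), Psmd1 (0.0316) and Psmd14 (0.0316). At an unadjusted p under 0.05 there were 23 members. Among vehicle animals the same test called none of the members and 0.145% of genes, with 4 members at an unadjusted p under 0.05. The interaction of treatment and run tests whether the difference between the arms varied between runs. It also called none of the members, and 0.189% of genes, with 16 members at an unadjusted p under 0.05.

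**Figure D5:**
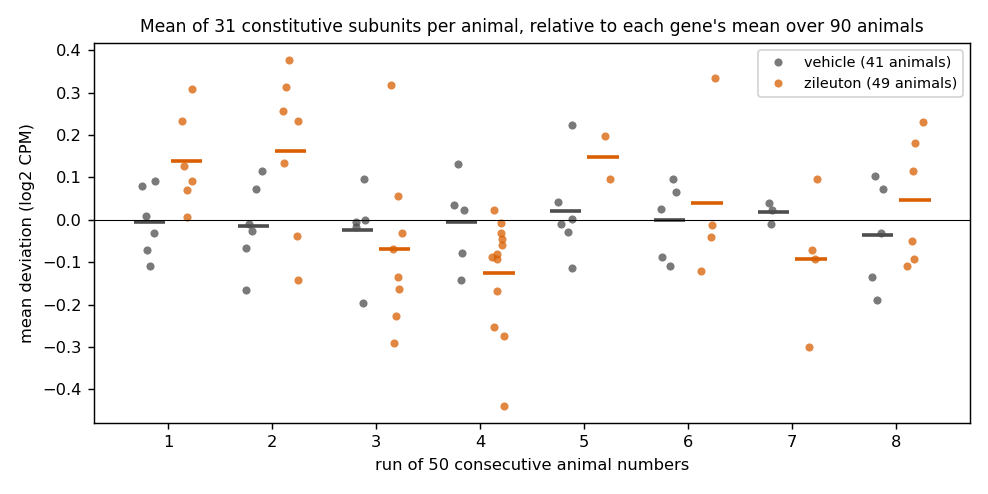
Mean log2 deviation of 31 constitutive subunits in each animal (vertical axis) by run of 50 consecutive animal numbers, for 41 vehicle (grey) and 49 zileuton (orange) animals, with run means as bars. Vehicle run means stay between -0.036 and 0.02, whereas zileuton run means reach from -0.126 (run 4) to 0.162 (run 2).

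Psmc6, a base ATPase, was at 72.7 ± 3.07 CPM in zileuton run 1 (SD, n = 6) and 71.5 ± 8.31 CPM in run 2 (SD, n = 7), but at 56.2 ± 4.07 CPM in run 4 (SD, n = 12). Its vehicle run means lay between 61.6 and 73.3 CPM. Psmd12, a lid subunit, was at 74 ± 5.45, 73.4 ± 9.97 and 59.8 ± 5.87 CPM in the same 3 zileuton runs, with vehicle run means between 60.5 and 68.5 CPM. For both genes the mean of zileuton run 4 lay below every vehicle run mean. Their promoters, printed because these 2 genes separated the runs most, lie at chr14:45329574-45329873 (Psmc6, plus strand) and chr11:107479278-107479577 (Psmd12, plus), on the build and with the capitals given above.
Psmc6: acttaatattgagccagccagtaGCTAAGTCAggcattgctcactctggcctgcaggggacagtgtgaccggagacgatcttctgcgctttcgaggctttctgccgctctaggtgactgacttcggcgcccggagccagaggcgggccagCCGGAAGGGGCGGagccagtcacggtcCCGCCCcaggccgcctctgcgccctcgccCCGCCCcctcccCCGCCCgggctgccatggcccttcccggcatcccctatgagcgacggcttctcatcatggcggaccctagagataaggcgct
Psmd12: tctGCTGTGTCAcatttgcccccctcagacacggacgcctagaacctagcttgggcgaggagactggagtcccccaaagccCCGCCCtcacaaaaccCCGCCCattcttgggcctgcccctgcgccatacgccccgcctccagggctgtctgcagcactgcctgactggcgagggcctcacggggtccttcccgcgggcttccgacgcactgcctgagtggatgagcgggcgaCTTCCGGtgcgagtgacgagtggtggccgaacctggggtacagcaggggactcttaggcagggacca
Both windows hold matches to the antioxidant response core, the ETS sequence and the GC box, and neither holds any of the other 4.

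Coat colour called no member. At an adjusted p under 0.05 the edgeR contrast of black with agouti coats called 0.0453% of all genes. White against agouti called 0.00755%, and the interaction of treatment with coat colour 0%. At an unadjusted p under 0.05 these tests gave 8, 2 and 1 of the 48 members. The share of all genes at that unadjusted threshold was not computed, here or for the other tests, so such counts have no background. The black coats numbered 12 animals, which limits the precision of these contrasts.

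Of 17 tested subunits and partners outside the naming rule, 2 rose and 4 fell, or 35.3%, where 29.3% of all tested genes were called. Ubr1, a ubiquitin ligase of the N-degron pathway, rose by 0.17 (adjusted p = 0.000771), and Ubqln2, a shuttle that carries substrates to the proteasome, by 0.16 (adjusted p = 0.00215). Zfand5, a proteasome-binding protein, fell from 50.2 ± 7.13 to 44.3 ± 5.38 CPM (log2 -0.18, adjusted p = 0.000195). Akirin2, which carries proteasomes into the nucleus, fell from 16.6 ± 1.86 to 15.1 ± 1.54 CPM (log2 -0.14, adjusted p = 0.000733). The maturation factor Pomp (0.05, adjusted p = 0.414) and the ubiquitin receptor Adrm1 (0.00, adjusted p = 0.975) did not pass.

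Of 14 tested genes that regulate proteasome genes, 2 rose and 3 fell, or 35.7% against the same 29.3%. Neither Nfe2l1 (0.06, adjusted p = 0.327) nor Nfe2l2, the antioxidant response factor (-0.02, adjusted p = 0.803), passed. Of the small Maf factors, their DNA-binding partners, Maff and Mafk rose and Mafg did not pass (0.13, adjusted p = 0.0587). Maff went from 2.37 ± 1.26 to 4.42 ± 2.51 CPM (log2 0.91, adjusted p = 4.79e-06), and Mafk went from 12.9 ± 2.61 to 16.7 ± 2.88 CPM (log2 0.38, adjusted p = 7.84e-08). Syvn1, an endoplasmic reticulum ubiquitin ligase that targets Nfe2l1, fell by 0.40 on the log2 scale (adjusted p = 0.00606), and its partner Sel1l fell by 0.16 (adjusted p = 0.00965). Of 7 ubiquitin supply genes 1 rose (14.3%), the polyubiquitin gene Ubb, by 0.16 (adjusted p = 0.0464). Of 18 interferon and antigen processing genes none rose and 4 fell. That is 22.2% called, where 29.3% of all tested genes were called and 14.8% fell. Isg15, a ubiquitin-like interferon target, fell by 0.37 (adjusted p = 0.0287) and Igtp, an interferon-induced GTPase, by 0.36 (adjusted p = 0.0443), while B2m, the light chain of class I molecules, fell by 0.15 (adjusted p = 0.00556) and H2-D1, a class I heavy chain, by 0.21 (adjusted p = 0.0325).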

How the data were processed

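Expected counts, that is, estimated counts that need not be whole, were deposited for every gene and library (76.7% of all values are whole). The second deposited table holds a signal, the authors' counts divided by 1 size factor per library. Partek, STAR, DESeq2 and the build mm10 appear in the submitters' processing notes. How reads were counted, and whether by strand, is not given in the sources used here, so reads of overlapping antisense genes cannot be told apart.

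Expected counts were rounded and fitted over the whole table with edgeR 4.0.16 (TMM, filterByExpr, robust quasi-likelihood F test, two-sided, Benjamini-Hochberg over 13248 genes, threshold 0.05). The fit was tested on simulated data. CPM uses TMM-scaled totals, and log2 CPM a prior count of 2. Ratios and relations used 100000 permutations, two-sided. Positions and exon lengths are from GENCODE M21 (mm10), and promoters from RefSeq. The labels do not number replicates, so numbers follow accession order. Animals were outbred individuals, 1 library each.

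The members and all lists were chosen with earlier results of these data known. Values in full were given for the 6 paired active-site genes and, per role, for the 2 largest called changes up and down or, with none, the most abundant gene. In pathway lists the 2 largest called changes in each direction were named, with Pomp, Adrm1, Nfe2l1 and Nfe2l2. B2m, H2-D1 and Cd3g were named after their values were seen. Alternatives were DESeq2 1.42.0, limma 3.58.1 (voom), other scalings, no filter, the normalized table with pseudocounts 1 and 8, covariates, leaving out each animal or run, and leaving out the 9 libraries of lowest total.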

Additional observations from a re-analysis of the deposited data

How the results depend on the processing

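No paired analysis was made, because each animal had 1 treatment and 1 library and the labels give no pairs. When runs of animal numbers were fitted as a block, 7 members and 30.5% of all genes were called. Of the 48 tested members, 7 were called in all animals (29.3% of all genes) and 5 to 7 when 1 animal was left out (28.3 to 30.8%). As covariates, plate row and column gave 4 (24.4% of all genes) and the hepatocyte marker score gave 4 (22%). The clock score gave 0 (2.9%) and the position within the run gave 0 (1.64%). With the clock score the difference of Psmb7 fell from 0.13 to 0.05, whereas with the position it was 0.25. Leaving out run 1 gave 4 (24.8% of all genes) and leaving out run 8 gave 4 (26.1%). In the other 18 alternatives the count was 5 to 8, with 22.8 to 31.2% of all genes called. Psmb7, Psma7, Psmc5, Psmd8 and Psmf1 were called in all 90 fits that left out 1 animal. Leaving out a run ended the call of Psma7 (runs 1, 2 and 8, each on its own), Psmd8 (run 1), Psme1 (runs 1, 4, 6, 7 and 8) and Psme2b (runs 4, 6, 7 and 8). The largest shift of the median over all genes was 0.01. The Psmb8 to Psmb5 ratio (-0.2566) passed with permutation within runs (adjusted permutation p = 0.0375) and not otherwise. The cause of these changes was not tested.

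Some values changed sign, among them those of Psmc5 and Psme2b, which were called in all animals. Psmb6 was at -0.0014 with upper quartile scaling, -0.0432 with the clock score, and -0.0014, -0.0112 and -0.0018 without runs 1, 2 and 8. Leaving out 1 animal gave -0.0001 to 0.02. Psmb9 was at 0.0395 with the plate and 0.0162 with the immune marker score. Psmb10 was at -0.1011 with the clock score, -0.0504 with the position and -0.0243 without run 6. Psmc5, at -0.14 in all animals, was at 0.0795 with the position. Psmd5 was at -0.0563 with the hepatocyte score, -0.0024 with the immune score, and -0.0038 and -0.0052 without runs 1 and 2. Psmg1 was at 0.0024 with the plate, 0.0394 with the clock score, 0.107 with the position, 0.0186 with the hepatocyte score and 0.0075 without run 6. Psme2b, at 0.12 in all animals, was at -0.0022 with the clock score. Over the 16 members given in full and all alternatives, 1741 of 1824 values kept direction and call, 61 lost the call and 22 changed sign. The alternatives were 90 fits that each left out 1 animal and 24 others. A gene not called in either fit was counted as kept, so these counts say little about how firm the calls were. Psmb11 and Psmc3ip were too low to test at these depths.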
